A study of Homo sapiens with 8 samples.

Results

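SNAI1, SNAI2, TWIST1, TWIST2, ZEB1, ZEB2 and PRRX1 encode transcription factors that hold cells in a mesenchymal state. Their mRNAs were measured here in human cardiac fibroblasts that had lost part of the translation factor eIF4G2. The 7 genes were taken by name from a table of 59385 gene symbols, and all 7 passed the filter on low counts. The genes were chosen by name with earlier results of these libraries known, and the measured value known for 1 of them was the level of SNAI2 in knockdown against scramble polysomes. For that reason the values of the 7 genes in polysomes of knockdown cells, and every difference of theirs that uses those libraries, are given below as a description without a test.

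The cells were IHCF, an immortalized line of human cardiac fibroblasts. The knockdown cells carried a lentiviral short hairpin RNA against EIF4G2, and the scramble cells a hairpin without a target. Cells of both kinds went without serum for 6 h or more and then received TGFb for 24 h, so no group shows the level without TGFb. Each kind gave 2 libraries of total RNA and 2 of polysomal RNA, 8 libraries in 4 groups. The model is 1 line, and neither the part of the EIF4G2 mRNA that the hairpin targets nor the way polysomes were isolated is given in the sources used here. The labels call the 2 libraries of a group biological replicates, while the series' design text speaks of triplicates.

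SNAI1 and SNAI2 (Snail and Slug) are zinc finger repressors, TWIST1 and TWIST2 are basic helix-loop-helix (bHLH) proteins, ZEB1 and ZEB2 are large zinc finger and homeodomain repressors, and PRRX1 is a paired-type homeodomain protein. In the embryo they act in gastrulation, neural crest and limb mesenchyme. In epithelial cells they switch off cell adhesion genes such as CDH1, and in fibroblasts several of them are induced by TGF-beta and accompany matrix production. eIF4G2 (DAP5) is a relative of the scaffold eIF4G1 and supports translation of a subset of mRNAs. A polysome is an mRNA carrying several ribosomes, so polysomal RNA is a sample of mRNA under translation.

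SNAI and ZEB proteins bind DNA at CACCT, which is AGGTG on the other strand, and this core sits inside the E-box CACCTG. RefSeq windows of the 250 bases before an annotated start were used for 4 of the 7 genes, 10 windows in all, 7 of them for ZEB1. Windows of the remaining genes were not examined. Of the 7 ZEB1 windows, 5 held no CACCT over both strands, 1 held 3 and 1 held 5. The last is the one shown, picked for that count, and its annotated start lies 1919 bases before that of the longest coding transcript. The ZEB2 window held 1. Windows are shown for ZEB1 and ZEB2 because only these of the 4 genes held a CACCT in a window. The TWIST2 and PRRX1 windows held no CACCT and no CANNTG, the general bHLH E-box. Of 35116 windows of this length in the RefSeq table, 45.4% held CACCT, 17.5% held CACCTG and 61.8% held CANNTG, and every CACCTG is also counted as a CACCT and a CANNTG. The matches are a description of these letters and no evidence of binding. The window of ZEB1 is chr10:31318966-31319215 on the plus strand and that of ZEB2 is chr2:144520120-144520369 on the minus strand, both GRCh38.p14 and written 5′ to 3′, with CACCT or AGGTG in capitals.
ZEB1: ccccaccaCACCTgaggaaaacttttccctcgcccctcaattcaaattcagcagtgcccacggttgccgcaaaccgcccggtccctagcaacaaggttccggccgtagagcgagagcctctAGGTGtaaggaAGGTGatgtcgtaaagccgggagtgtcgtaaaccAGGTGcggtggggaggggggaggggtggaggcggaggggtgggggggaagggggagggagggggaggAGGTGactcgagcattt
ZEB2: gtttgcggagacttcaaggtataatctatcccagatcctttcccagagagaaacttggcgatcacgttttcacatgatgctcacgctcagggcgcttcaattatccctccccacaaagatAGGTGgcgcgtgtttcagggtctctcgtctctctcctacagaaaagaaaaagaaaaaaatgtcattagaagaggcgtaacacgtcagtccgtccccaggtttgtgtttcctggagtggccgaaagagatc

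SNAI1 lies on chromosome 20 (49982999 to 49988886, plus strand), SNAI2 on chromosome 8 (48917604 to 48921740, minus strand) and TWIST1 on chromosome 7 (19020991 to 19117672, minus strand). TWIST2 lies on chromosome 2 (238848032 to 238910543, plus strand) and ZEB2 on the same chromosome (144364364 to 144524583, minus strand). ZEB1 lies on chromosome 10 (31318495 to 31529814, plus strand) and PRRX1 on chromosome 1 (170662728 to 170739419, plus strand). Positions are GRCh38, from GENCODE release 29. The longest coding transcripts are short ones, with 1404 nt for TWIST2, 1666 nt for TWIST1, 1686 nt for SNAI1 and 2428 nt for SNAI2, and long ones, with 4284 nt for PRRX1, 6267 nt for ZEB1 and 9583 nt for ZEB2. In that annotation 11 other genes overlap 4 of the 7. Antisense genes lie over TWIST1 (AC003986.2), ZEB1 (ZEB1-AS1) and ZEB2 (ZEB2-AS1 and AC009951.2), and a lincRNA gene, Z97200.1, lies over PRRX1 on the same strand. The strand setting of the counting was not given, so reads of such a pair cannot be told apart where they overlap. ZEB1-AS1 had 73 to 147 counts per library and ZEB2-AS1 at most 5, and counts of the other antisense and lincRNA genes were not used here. The pseudogenes SNAI1P1 and ZEB2P1 had 0 counts in every library.

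The 8 libraries held 18043714 to 24590030 counts. EIF4G2 itself had 293 and 327 CPM (counts relative to the TMM-scaled library total) in knockdown total RNA, against 794 and 785 CPM in scramble total RNA, and 244 and 335 CPM in knockdown polysomes, against 875 and 877 CPM in scramble polysomes. All knockdown libraries were below all scramble libraries, by a log2 fold change of -1.35 ± 0.18 (SE) in total and -1.60 ± 0.18 in polysomal RNA (edgeR adjusted p of 0.0504 and 0.0276, the first just above the threshold of 0.05). Some libraries stood apart. On the first principal component, with 78.0% of the variance, knockdown total 1 was at -88.4, against -112 to -115 for the other total libraries. Polysome libraries lay at 95.8 to 117 on it. Knockdown polysome 1 was alone on the second principal component (7.90% of the variance), at -83.0 against -2.46 to 32.6 for the others. Knockdown polysome 2 was alone on the third (5.39%), at -62.0 against -5.21 to 42.3 for the others. Libraries of 1 group varied more in polysomal RNA (biological coefficient of variation 0.246) than in total RNA (0.112). The 10 fibroblast markers summed to 5430 to 6911 CPM, most of it from COL1A1 (885 to 4171 CPM) and VIM (1093 to 5751 CPM). The proteoglycan DCN reached only 0.434 CPM, PDGFRA 2.16, DDR2 4.78, POSTN 5.18 and LUM 9.51 CPM, so 5 of the 10 stayed under 10 CPM in every library. Cardiomyocyte and leukocyte markers summed to at most 1.15 and 1.60 CPM and endothelial ones to 12.2 to 20.2 CPM. The 8 mural markers, mainly MCAM and CSPG4, summed to 385 to 443 CPM in knockdown total RNA, against 462 to 480 CPM in scramble total RNA, and to 78.7 to 94.9 CPM in knockdown polysomes, against 107 to 143 CPM in scramble polysomes. Their part in the values below was not tested.

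TWIST2 was the most abundant of the 7 mRNAs per kilobase of transcript in every group. It averaged 77.1 CPM per kb in knockdown and 59.4 in scramble polysomes, and 19.0 in knockdown and 15.9 in scramble total RNA (n = 2 each). In knockdown polysomes, SNAI2 (17.5 CPM per kb) and SNAI1 (16.9) came next and overlapped between their libraries, followed by TWIST1 (11.8), and ZEB1 (1.497), PRRX1 (1.09) and ZEB2 (0.858) overlapped with their neighbours at the low end. In scramble polysomes the order below TWIST2 was SNAI1 (17.2 CPM per kb), TWIST1 (9.57), SNAI2 (7.33), ZEB1 (1.24), PRRX1 (0.861) and ZEB2 (0.820), and only PRRX1 and ZEB2 overlapped. By its mean SNAI2 thus stood beside SNAI1 in knockdown polysomes and below TWIST1 in scramble polysomes. Its knockdown polysome libraries, at 22.4 and 12.6 CPM per kb, lay on either side of those of SNAI1, at 16.9 and 17.0.

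The order in total RNA was another one. In knockdown cells, TWIST1 (8.08 CPM per kb) and SNAI2 (6.89) stood above ZEB1 (5.07), SNAI1 (3.04), ZEB2 (2.70) and PRRX1 (1.41), and no neighbours overlapped. In scramble cells the order was ZEB1 (6.15 CPM per kb), TWIST1 (5.61), SNAI2 (3.98), ZEB2 (3.26), SNAI1 (3.11) and PRRX1 (1.38), where ZEB2 and SNAI1 overlapped and the other neighbours did not. ZEB1 and ZEB2 together with PRRX1 made up a far smaller part of the 7 genes' counts per kb in polysomal than in total RNA, as the stacked plot of shares shows.

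**Figure D1:**
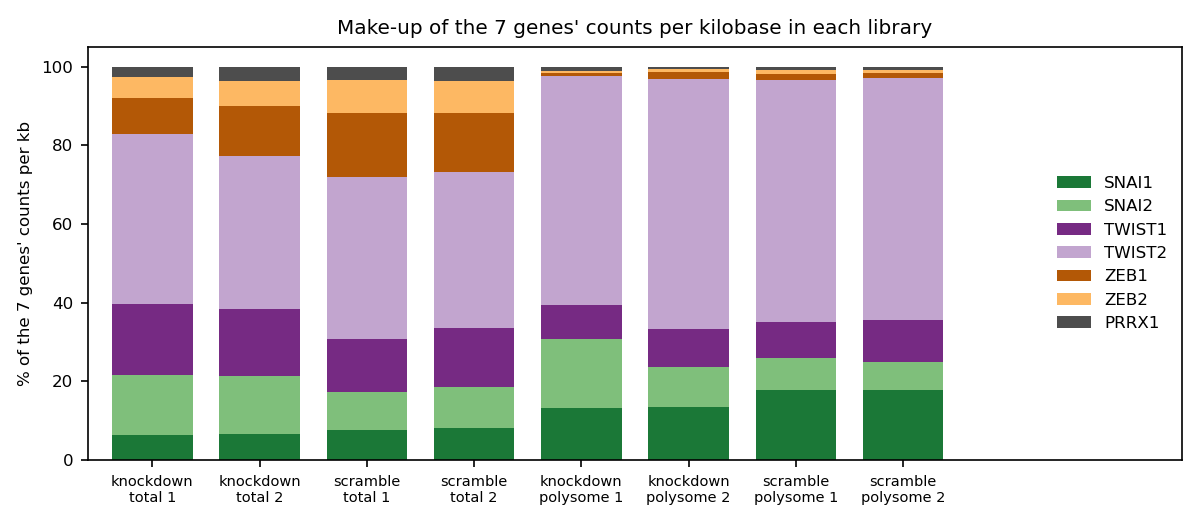
Share of each gene in the 7 genes' summed counts per kilobase of longest coding transcript (%, vertical axis) in each of the 8 libraries. TWIST2 takes 58.1% to 63.6% of polysomal and 38.9% to 43.3% of total RNA, while ZEB1 takes at most 1.54% of polysomal and 9.14% to 16.3% of total RNA.

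SNAI1 and SNAI2, close relatives with the same kind of DNA-binding domain, had unlike values in the knockdown, a contrast between the genes that was not tested. In total RNA, SNAI2 stood at 17.3 and 16.2 CPM in knockdown cells, against 8.98 and 10.3 CPM in scramble cells, a log2 fold change of 0.79 ± 0.25 (SE). Both knockdown libraries were above both scramble libraries, but the difference did not pass edgeR's quasi-likelihood test over all genes (unadjusted p = 0.00971, adjusted p = 1). Fitted on the 4 total libraries alone the value was 0.78, with an edgeR adjusted p of 0.130. SNAI1 stood at 5.09 and 5.17 CPM in knockdown total RNA, against 4.91 and 5.57 CPM in scramble total RNA. The scramble libraries enclosed the knockdown ones, and the log2 fold change was -0.03 ± 0.19.

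In polysomes SNAI2 had 54.4 and 30.7 CPM in knockdown cells (805 and 361 counts), against 19.0 and 16.6 CPM in scramble cells (351 and 279 counts). The knockdown libraries were both higher but far apart from each other. The higher one is knockdown polysome 1, which stood alone on the second principal component. The lower one is knockdown polysome 2, which stood alone on the third. The log2 fold change was 1.26 ± 0.25. It was 0.75 without knockdown polysome 1 and 1.55 without knockdown polysome 2. SNAI1 had 28.5 and 28.6 CPM in knockdown polysomes, against 28.1 and 29.8 CPM in scramble polysomes, a log2 fold change of -0.02 ± 0.18.

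The ratio of SNAI2 to SNAI1 counts within a library does not depend on scaling. It was 3.40 and 3.12 in knockdown total RNA, against 1.83 and 1.86 in scramble total RNA. In polysomes it was 1.91 and 1.07 in knockdown cells, against 0.676 and 0.557 in scramble cells. The knockdown ratios were above the scramble ratios in both fractions. The polysomal ratios were lower than the total ones in cells of both kinds. SNAI2's difference between knockdown and scramble was larger in polysomal than in total RNA by 0.47 ± 0.35 on the log2 scale, and by -0.02 without knockdown polysome 1.

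**Figure D2:**
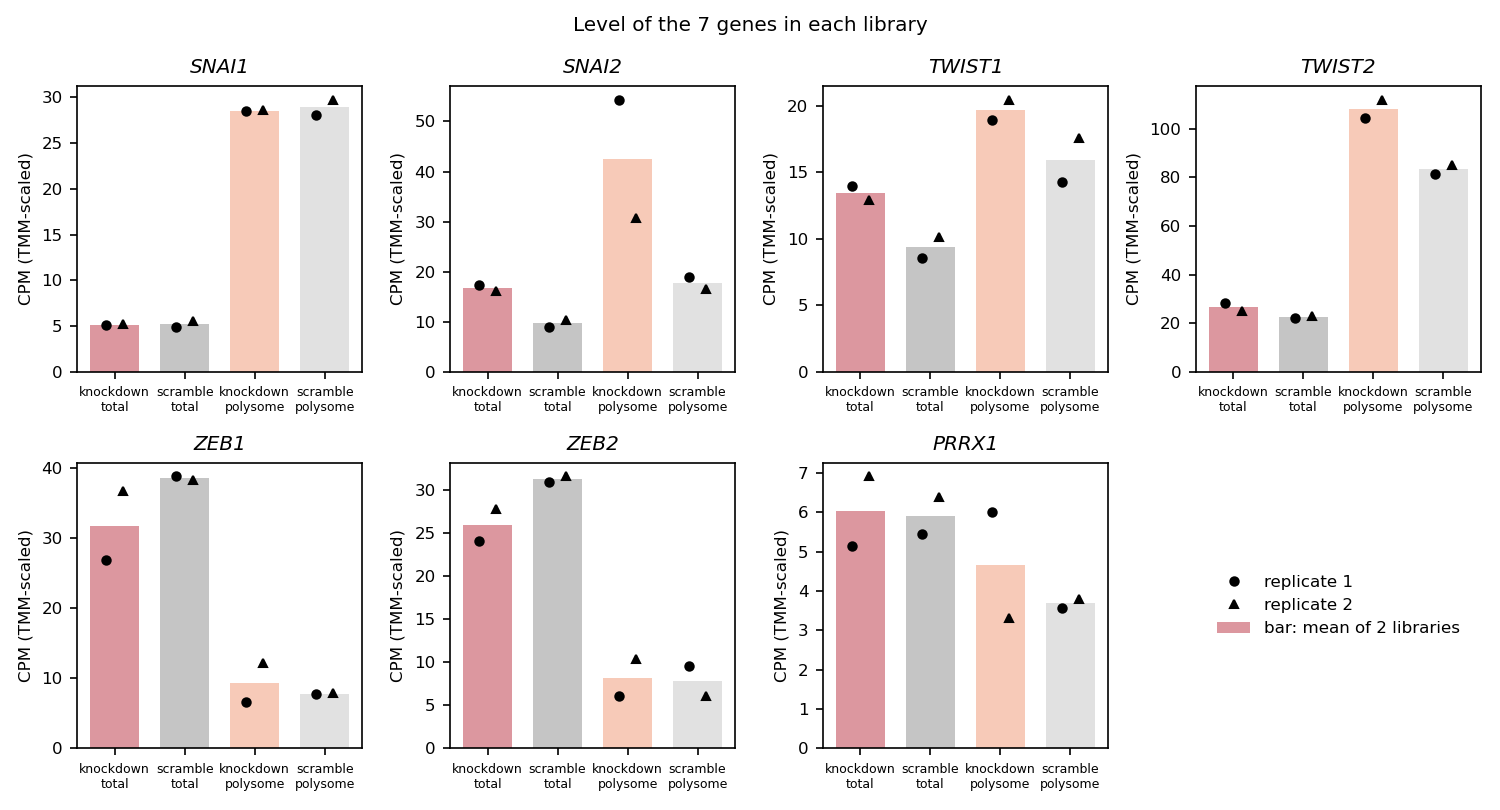
TMM-scaled CPM (vertical axes, from 0) of the 7 genes in each library, with replicate 1 as circles, replicate 2 as triangles and bars for the mean of 2 libraries. SNAI2 shows its highest value, 54.4 CPM, in knockdown polysome 1, SNAI1 stays between 28.1 and 29.8 CPM in all polysome libraries, and ZEB1 and ZEB2 are lower in polysome than in total libraries.

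TWIST1 and TWIST2 both stood somewhat above scramble in knockdown total RNA. TWIST1, which pairs with E proteins to bind E-boxes, had 14.0 and 12.9 CPM in knockdown cells, against 8.58 and 10.1 CPM in scramble cells. The groups did not overlap, and the log2 fold change of 0.53 ± 0.20 had an unadjusted p of 0.0245 and an edgeR adjusted p of 1. TWIST2 had 28.5 and 24.9 CPM in knockdown cells, against 22.0 and 22.8 CPM in scramble cells, a log2 fold change of 0.25 ± 0.14 with an edgeR adjusted p of 1. It was 0.15 without knockdown total 1. Both knockdown libraries were again higher, by less than for TWIST1.

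In polysomes TWIST1 had 19.0 and 20.5 CPM in knockdown cells, against 14.3 and 17.6 CPM in scramble cells, a log2 fold change of 0.31 ± 0.20. It ran from 0.14 to 0.39 with a library left out, with 0.14 without scramble polysome 1 and 0.19 without knockdown polysome 2. TWIST2 had 105 and 112 CPM in knockdown polysomes, against 81.3 and 85.3 CPM in scramble polysomes, a log2 fold change of 0.38 ± 0.14. Neither gene's groups overlapped. The ratio of TWIST1 to TWIST2 counts was 0.492 and 0.519 in knockdown total RNA, against 0.391 and 0.444 in scramble total RNA. In polysomes it was 0.182 and 0.183 in knockdown cells, against 0.176 and 0.206 in scramble cells, where the groups overlapped. TWIST2 thus outnumbered TWIST1 more in polysomal than in total RNA, in cells of both kinds.

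ZEB1 and ZEB2 pointed the other way in total RNA. ZEB1 had 26.8 and 36.8 CPM in knockdown cells, against 38.9 and 38.3 CPM in scramble cells, a log2 fold change of -0.28 ± 0.25. Knockdown total 1 carried most of this, since the value was -0.07 without it and -0.53 without knockdown total 2. ZEB2 had 24.1 and 27.8 CPM in knockdown cells, against 30.9 and 31.6 CPM in scramble cells, a log2 fold change of -0.27 ± 0.26 that was -0.17 without knockdown total 1. Both genes' knockdown libraries lay below their scramble libraries, and both had an edgeR adjusted p of 1.

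In polysomes the direction for both ZEB genes turned when knockdown polysome 2 was left out. ZEB1 had 6.62 and 12.1 CPM in knockdown polysomes, against 7.75 and 7.84 CPM in scramble polysomes, a log2 fold change of 0.25 ± 0.28 that was 0.60 without knockdown polysome 1 and -0.30 without knockdown polysome 2. ZEB2 had 6.08 and 10.4 CPM in knockdown polysomes, against 9.59 and 6.12 CPM in scramble polysomes, with 0.05 ± 0.29, 0.36 and -0.44 for the same 3 fits. With any single library left out, scramble ones included, ZEB2 ran from -0.44 to 0.39. The groups overlapped for both genes. The ratio of ZEB1 to ZEB2 counts ran from 0.808 to 1.32 over all 8 libraries, and the knockdown and scramble ranges overlapped in both fractions.

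PRRX1, a regulator of fibroblast identity and limb mesenchyme, had the fewest counts of the 7 in each polysomal library, while SNAI1 had fewer in each total library. PRRX1 had 5.15 and 6.92 CPM in knockdown total RNA, against 5.44 and 6.39 CPM in scramble total RNA (164 and 210 counts against 163 and 171), a log2 fold change of 0.03 ± 0.32. In polysomes it had 6.01 and 3.31 CPM in knockdown cells, against 3.58 and 3.80 CPM in scramble cells, from 39 to 89 counts a library. The knockdown polysome libraries enclosed the scramble ones. The log2 fold change of 0.35 ± 0.35 was -0.19 without knockdown polysome 1 and 0.64 without knockdown polysome 2.

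Counted together, 0 of the 7 genes passed edgeR in total RNA, where 0% of 16228 tested genes passed. DESeq2 also called 0 of the 7, against 0.16% of all tested genes. An unadjusted p under 0.05 was reached by 2 of the 7, SNAI2 and TWIST1, beside 3.68% of all tested genes. The libraries did not overlap for 3 genes higher in knockdown (SNAI2, TWIST1, TWIST2), beside 24.8% of all tested genes, and for 2 lower in knockdown (ZEB1, ZEB2), beside 23.1%. In polysomal RNA, where nothing is read from the counts because SNAI2's value was known, the libraries did not overlap for 3 genes higher in knockdown, beside 15.5% of all genes, and for 0 lower, beside 18.5%. The knockdown difference in polysomal minus that in total RNA, other than SNAI2's above, was 0.01 ± 0.26 for SNAI1, -0.22 ± 0.29 for TWIST1, 0.12 ± 0.20 for TWIST2, 0.53 ± 0.37 for ZEB1, 0.32 ± 0.39 for ZEB2 and 0.32 ± 0.48 for PRRX1. With a library left out these ran from -0.36 to -0.11 for TWIST1, from 0.03 to 0.23 for TWIST2, from 0.00 to 0.90 for ZEB1, from -0.15 to 0.68 for ZEB2 and from -0.20 to 0.63 for PRRX1.

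**Figure D3:**
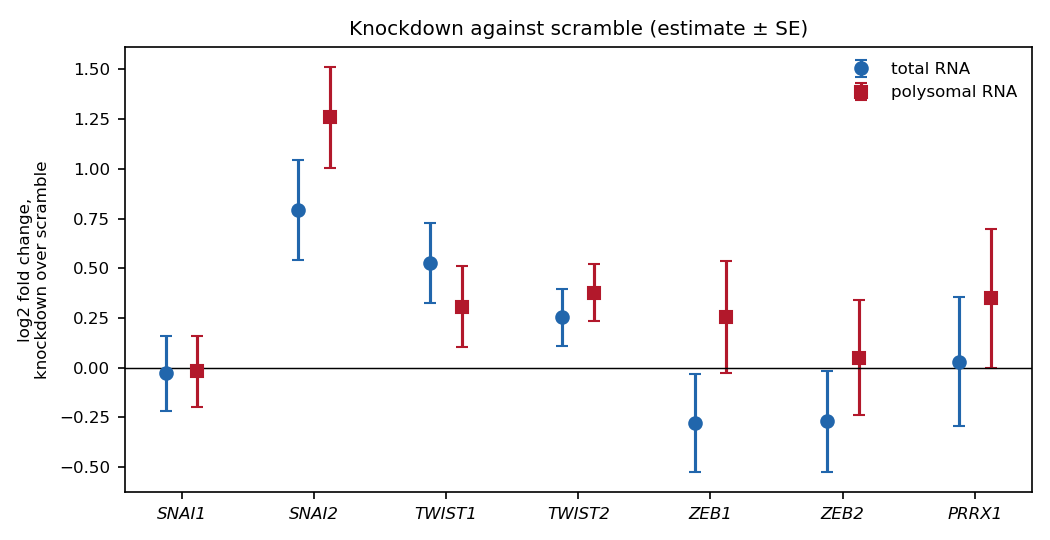
Log2 fold change of knockdown over scramble (vertical axis, edgeR estimate ± SE, 2 libraries against 2) for each gene in total RNA (circles) and polysomal RNA (squares). SNAI2 has the highest estimate in both fractions, 0.79 in total and 1.26 in polysomal RNA, SNAI1 lies at -0.03 and -0.02, and the ZEB1 and ZEB2 estimates lie below 0 in total RNA and above 0 in polysomal RNA.

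Transcript length moved with these total RNA values. Over 14144 tested genes with a length, the knockdown log2 fold change in total RNA was lower the longer the longest coding transcript (Spearman's rho of -0.34 across genes, which are not independent replicates and share the libraries). Its median was 0.20 for genes of up to 1500 nt, 0.12 for the next class, of up to 2500 nt, -0.07 for genes of 4001 to 6998 nt and -0.15 for longer ones. SNAI2 and TWIST1 lay above the upper quartile of their class (0.27), and ZEB1 lay below the lower quartile of its class (-0.21). SNAI1 (-0.03), TWIST2, ZEB2 and PRRX1 lay within the quartiles of theirs. With an offset that removes the trend with length in each library, SNAI2 was at 0.74, TWIST1 at 0.41, TWIST2 at 0.12, ZEB1 at -0.19 and ZEB2 at -0.13.

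The largest differences were between polysomal and total RNA. In knockdown cells, given as a description, the log2 fold changes of polysomal over total RNA were 2.48 for SNAI1, 1.35 for SNAI2, 0.55 for TWIST1, 2.02 for TWIST2, -1.77 for ZEB1, -1.67 for ZEB2 and -0.36 for PRRX1, with SEs of 0.15 to 0.34. Without knockdown polysome 1 the value was 0.78 for SNAI2 and -0.96 for PRRX1, and PRRX1 was at -0.13 without knockdown polysome 2 and -0.17 without knockdown total 2. The scramble libraries entered that fit through its filter, scaling and estimate of spread. Their own values had the 2 short genes SNAI1 and TWIST2 at the top and ZEB2 and ZEB1 at the bottom as well.

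In scramble cells SNAI1 and TWIST2 were far higher in polysomal RNA, ZEB1 and ZEB2 far lower, SNAI2 and TWIST1 moderately higher, and PRRX1 did not pass the test. SNAI1 averaged 28.9 ± 1.16 CPM in polysomal and 5.24 ± 0.465 CPM in total RNA (SD, n = 2), a log2 fold change of 2.47 ± 0.19 with an edgeR adjusted p of 1.80e-06. TWIST2 averaged 83.3 ± 2.82 CPM in polysomal and 22.4 ± 0.577 CPM in total RNA, with 1.90 ± 0.15 and an edgeR adjusted p of 1.83e-06. These 2 short mRNAs were higher in polysomal RNA in cells of both kinds. Their log2 fold changes of knockdown over scramble were -0.03 in total and -0.02 in polysomal RNA for SNAI1, and 0.25 and 0.38 for TWIST2.

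ZEB1 averaged 7.80 ± 0.0663 CPM in polysomal and 38.6 ± 0.435 CPM in total RNA of scramble cells, a log2 fold change of -2.31 ± 0.27 (edgeR adjusted p of 2.50e-05). ZEB2 averaged 7.86 ± 2.45 CPM in polysomal and 31.3 ± 0.506 CPM in total RNA, with -1.99 ± 0.28 (edgeR adjusted p of 8.48e-05). The polysomal libraries of both lay below all total libraries. PRRX1 averaged 3.69 ± 0.160 CPM in polysomal and 5.92 ± 0.668 CPM in total RNA, with -0.68 ± 0.34 (edgeR adjusted p of 0.1003). PRRX1 passed in 5 of the 18 alternatives run. These were the 4 scramble libraries alone (-0.66, edgeR adjusted p of 0.0465), no filter on low counts (-0.83, 0.04995), library totals (-1.68, 0.00196) and either knockdown polysome library left out (-0.76 for both, 0.0263 without the first and 0.0246 without the second).

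SNAI2 averaged 17.8 ± 1.73 CPM in polysomal and 9.67 ± 0.966 CPM in total RNA of scramble cells, a log2 fold change of 0.88 ± 0.26 (edgeR adjusted p of 0.0112), which was -0.11 with libraries scaled by their totals alone. TWIST1 averaged 15.9 ± 2.32 CPM in polysomal and 9.35 ± 1.09 CPM in total RNA, with 0.77 ± 0.20 (edgeR adjusted p of 0.00679), which was -0.24 with library totals. Neither passed without scramble total 1, at edgeR adjusted p of 0.0845 for SNAI2 and 0.117 for TWIST1. SNAI2 also failed without scramble polysome 1 and TWIST1 without scramble polysome 2, with 0.0905 and 0.0540. Library totals moved the median of all genes by -0.996 on the log2 scale. Relative to that median, SNAI2 stood 1.05 higher under TMM and 1.05 higher under library totals, and TWIST1 0.93 higher under both.

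In all, 6 of the 7 genes passed in scramble cells, 4 higher and 2 lower in polysomal RNA, beside 63.4% of all tested genes (29.7% higher and 33.7% lower). Most tested genes differed between the fractions in this fit.

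Length moved with the polysomal position of the mRNAs as well. Across 14144 genes the log2 fold change of polysomal over total RNA in scramble cells had a Spearman's rho of -0.57 with transcript length, and over the 7 genes the rho was -0.79, both descriptions. The median was 1.76 (quartiles 0.75 and 2.45) for genes of up to 1500 nt, the class of TWIST2. It was 0.77 (-0.01 and 1.42) for the class of SNAI1, TWIST1 and SNAI2, -1.02 (-1.86 and -0.18) for that of PRRX1 and ZEB1, and -1.65 (-2.56 and -0.60) for that of ZEB2. SNAI1, at 2.47, lay above the upper quartile of its class and ZEB1, at -2.31, below the lower quartile. The other 5 genes lay within the quartiles.

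With the length trend removed by an offset, SNAI1 (1.65), TWIST2 (0.88) and SNAI2 (0.67, edgeR adjusted p of 0.0478) were still called higher in scramble polysomes and ZEB1 (-1.08, edgeR adjusted p of 0.00519) lower. ZEB2, at -0.45, no longer passed, with an edgeR adjusted p of 0.150, and TWIST1 (-0.06) and PRRX1 (0.08) changed sign. That offset moved the median of all genes by 0.31. What lies behind the trend with length was not tested.

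**Figure D4:**
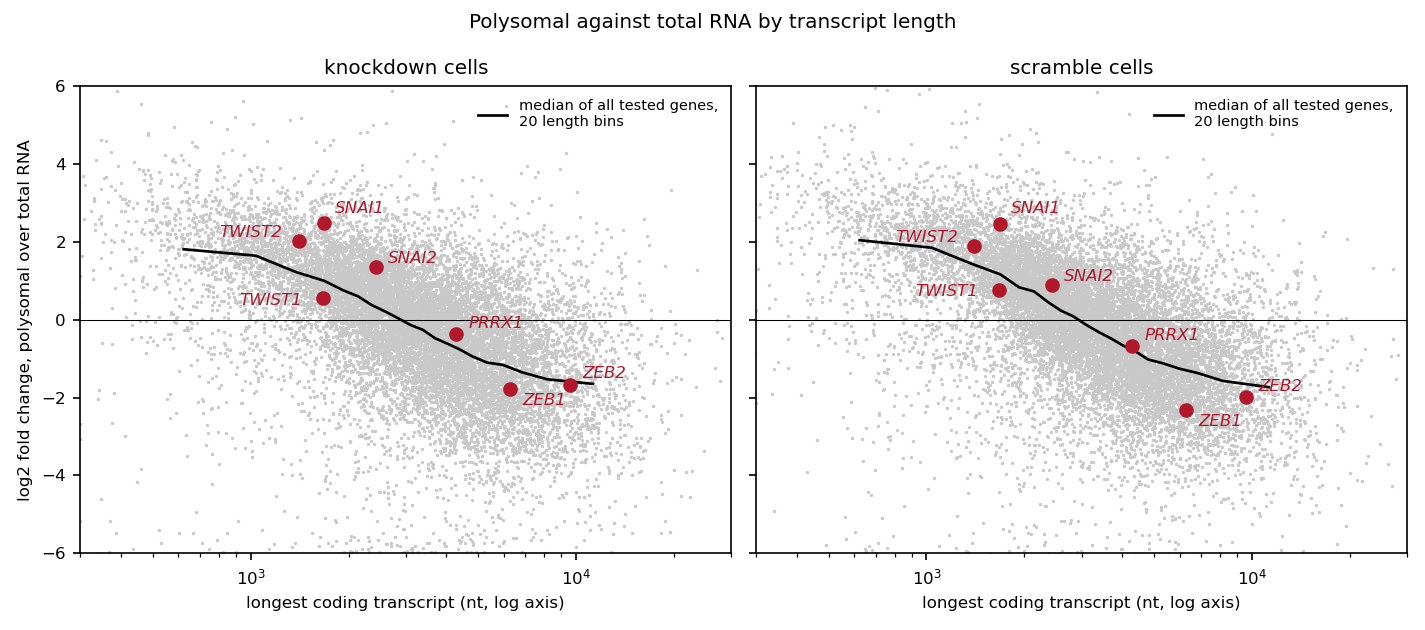
Log2 fold change of polysomal over total RNA (vertical axis) against the length of the longest coding transcript (nt, log axis) in knockdown cells (left) and scramble cells (right), with grey points for tested genes, a black line for their median in length bins and red points for the 7 genes. In scramble cells SNAI1 (2.47 at 1686 nt) and ZEB1 (-2.31 at 6267 nt) lie farthest from the line among the 7.

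Likeness of pattern did not follow family alone. The root-mean-square difference of centred log2 CPM over the 8 libraries was 0.210 between ZEB1 and ZEB2 and 0.309 between SNAI1 and TWIST2, the 2 closest pairs. It was 0.888 between SNAI1 and SNAI2 and 0.663 between TWIST1 and TWIST2. SNAI1 and ZEB1 were farthest apart, at 2.27. Among 10453 protein-coding genes the pattern nearest to SNAI1 was that of LDHA, PCNA and PSMG2 (0.103 to 0.121), and nearest to TWIST2 were S100A16, BAD and PHB2 (0.0706 to 0.0787). CDC42EP1, PRR16 and ETV4 came closest to SNAI2 (0.235 to 0.248), and NEK11, PDGFC and GLI1 to TWIST1 (0.0985 to 0.109). For ZEB1 they were EHD3, ZNF236 and AP4E1 (0.109 to 0.129), for ZEB2 SH3RF3, MET and PRKAR2A (0.133 to 0.148), and for PRRX1 CERK, ZKSCAN3 and ZNF317 (0.0905 to 0.118). No single gene came as near to SNAI2 as the nearest ones did to the other 6. The distance includes the knockdown polysome libraries, where SNAI2 had 54.4 and 30.7 CPM, and their part in it was not tested.

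**Figure D5:**
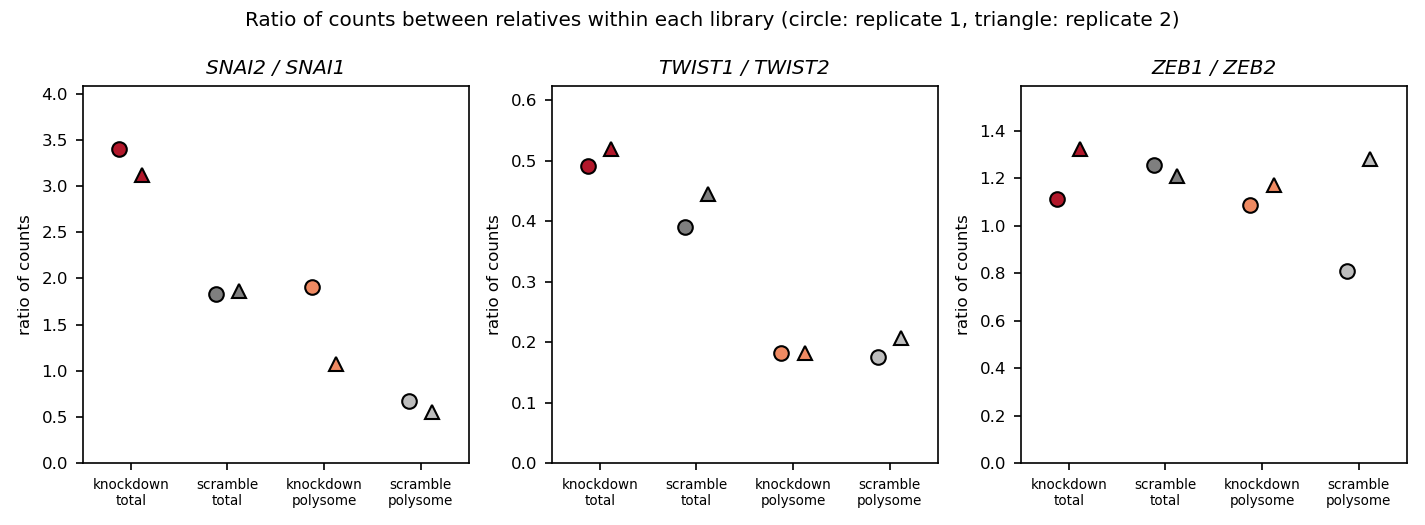
Ratio of counts between relatives within each library (vertical axes, from 0), by group, with circles for replicate 1 and triangles for replicate 2. SNAI2 to SNAI1 is 3.40 and 3.12 in knockdown total RNA against 1.83 and 1.86 in scramble total RNA, and 1.91 and 1.07 in knockdown polysomes against 0.676 and 0.557 in scramble polysomes, while ZEB1 to ZEB2 lies between 0.808 and 1.32 in every group.

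Partners of the TWIST proteins were also measured. E proteins such as TCF3 dimerize with TWIST1 and TWIST2, and ID proteins, which lack a DNA-binding region, take E proteins away. All 7 genes of this list were tested, and edgeR called 0 in total RNA. DESeq2 called 1 there, ID3, beside 0.16% of all tested genes. An unadjusted p under 0.05 was reached by 2 of the 7 in total RNA, beside 3.68% of all genes. ID3 had 49.8 and 40.8 CPM in knockdown total RNA, against 19.8 and 20.3 CPM in scramble total RNA, a log2 fold change of 1.18 ± 0.16 (edgeR adjusted p of 0.0504, DESeq2 adjusted p of 1.07e-07). ID1 had 10.5 and 6.79 CPM in knockdown total RNA, against 4.51 and 5.08 CPM in scramble total RNA, with 0.85 ± 0.23 (edgeR adjusted p of 1) and 0.50 without knockdown total 1. In polysomes ID3 had 298 and 346 CPM in knockdown cells, against 282 and 260 CPM in scramble cells, with 0.25 ± 0.15, which was 0.07 without knockdown polysome 2 and 0.12 without scramble polysome 2. TCF3 had 171 and 152 CPM in knockdown polysomes, against 111 and 142 CPM in scramble polysomes, with 0.35 ± 0.16, which was 0.16 without scramble polysome 1 and 0.23 without knockdown polysome 1. Over the list edgeR called 0 in polysomes, beside 0.0123% of all genes, and DESeq2 called 0, beside 1.40%. There 1 of the 7 had an unadjusted p under 0.05, beside 13.3% of all genes, and the median was 0.10 in total and 0.29 in polysomal RNA, against 0.02 and -0.01 for all genes.

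Inducers of the 7 genes include the TGF-beta receptors, SMAD proteins, NOTCH receptors and HMGA2, a chromatin protein that acts with SMADs on SNAI1 and TWIST1. Of 18 listed, 17 were tested, and edgeR called 0 in either fraction of the knockdown comparison (1 at an unadjusted p under 0.05 in total RNA and 5 in polysomal RNA, beside 3.68% and 13.3% of all genes). HMGA2 had 22.2 and 26.5 CPM in knockdown total RNA, against 9.45 and 9.00 CPM in scramble total RNA, a log2 fold change of 1.40 ± 0.25 (edgeR adjusted p of 0.350, DESeq2 adjusted p of 0.00136). In polysomes HMGA2 had 23.8 and 16.5 CPM in knockdown cells, against 9.86 and 6.77 CPM in scramble cells, with 1.28 ± 0.25 (edgeR adjusted p of 0.161, DESeq2 adjusted p of 0.00548). TGFBR2, the receptor that binds the ligand, had 103 and 106 CPM in knockdown polysomes, against 59.2 and 76.8 CPM in scramble polysomes, with 0.62 ± 0.16 (edgeR adjusted p of 0.190, DESeq2 adjusted p of 0.0353). HMGA2 and TGFBR2 were the 2 genes of the list that DESeq2 called in polysomes, beside 1.4% of all tested genes. In total RNA DESeq2 called 1 of the list, HMGA2, beside 0.16% of all tested genes. The list medians were -0.03 in total and 0.12 in polysomal RNA.

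Epithelial genes that SNAI, TWIST and ZEB proteins repress were mostly silent or low. Of 26 listed, 17 were tested. CDH1, the target best known, had at most 5 counts in any library, and ESRP1, GRHL2 and OVOL1 had 0 counts in all 8, where a count of 0 allows up to 3 counts per library. In total RNA 13 of the 17 had a log2 fold change below 0, with a median of -0.36, where edgeR called 0 and DESeq2 called 0, with 5 at an unadjusted edgeR p under 0.05, beside 3.68% of all genes. In polysomes 17 of 17 were below 0, with a median of -0.53. There edgeR called 0, with 9 at an unadjusted p under 0.05, beside 13.3% of all genes. DESeq2 called 2 lower, beside 1.4% of all tested genes in either direction. These were PPL and DSP, which encode desmosomal plaque proteins. PPL had 2 and 0 counts in knockdown polysomes, against 29 and 30 counts in scramble polysomes. DSP had 23 and 4 counts in knockdown polysomes, against 117 and 36 counts in scramble polysomes. Over all genes 47.1% were below 0 in total and 51.4% in polysomal RNA.

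JUP, the desmosome and junction protein plakoglobin, had 91.5 and 85.8 CPM in knockdown total RNA, against 128 and 124 CPM in scramble total RNA, a log2 fold change of -0.51 ± 0.16 (edgeR adjusted p of 1). CLDN1, a tight junction protein, had 8.36 and 8.01 CPM in knockdown total RNA, against 4.74 and 4.30 CPM in scramble total RNA, with 0.86 ± 0.26 (edgeR adjusted p of 1). CLDN1 was higher in knockdown total RNA while the list's median was lower. A list of 8 epithelial cell markers, several of them shared with these targets, summed to 2239 and 2271 CPM in knockdown polysomes, against 3133 and 3205 CPM in scramble polysomes. In total RNA the sum was 1167 and 1424 CPM in knockdown cells, against 1366 and 1395 CPM in scramble cells, where the groups overlapped. Nearly all of each sum was KRT8 and KRT18, and CDH1 and ESRP1 were at most 0.165 CPM. The part of the polysomal keratin difference in the list's values was not tested, and in bulk RNA fewer cells of a type and less RNA per cell cannot be told apart.

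Mesenchymal genes that accompany the 7 factors were split. All 24 listed were tested. In total RNA 17 were above 0 and 7 below, with a median of 0.11, and edgeR called 0 (5 at an unadjusted p under 0.05, beside 3.68% of all genes). In polysomal RNA 7 were above 0 and 17 below, with a median of -0.29, and edgeR called 0 (10 at an unadjusted p under 0.05, beside 13.3% of all genes). DESeq2 called 1 lower in each fraction, beside 0.16% of all tested genes in total and 1.4% in polysomal RNA in either direction. In polysomal RNA it was COL1A1 (log2 fold change -0.59 ± 0.15, DESeq2 adjusted p of 0.0177, edgeR adjusted p of 0.244), which was named after its value was seen. In total RNA it was BGN, the matrix proteoglycan biglycan, with 28.4 and 24.9 CPM in knockdown cells, against 48.0 and 51.0 CPM in scramble cells, a log2 fold change of -0.90 ± 0.19 (edgeR adjusted p of 0.556, DESeq2 adjusted p of 0.00491). LUM, the related proteoglycan lumican, had 5.72 and 4.25 CPM in knockdown total RNA, against 2.37 and 1.87 CPM in scramble total RNA, with 1.23 ± 0.30 (edgeR adjusted p of 0.791). In polysomes the collagen receptor DDR2 had 9 and 7 counts in knockdown cells, against 59 and 25 counts in scramble cells, and the growth factor receptor PDGFRA 32 and 17 counts in knockdown cells, against 5 and 10 counts in scramble cells. Neither passed edgeR (adjusted p of 0.187 and 0.226).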

How the data were processed

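Polysome-seq of IHCF cells was analysed from the table of raw counts per gene that the authors deposited. According to the design text, polyA RNA free of DNA was sequenced as read pairs. The build GRCh38, HISAT2 2.1.0 and featureCounts (Subread 2.0.1) are named in the submitters' processing notes, beside bcl2fastq 2.19.0, Trimmomatic 0.36, R 4.1.2 and DESeq2. Neither annotation nor strand setting is given in the sources used here. Groups came from the sample labels.

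filterByExpr over the 4 groups kept 16228 genes, and counts were fitted with edgeR 4.0.16 in R 4.3.3 (TMM factors, robust quasi-likelihood fit, group means, all 8 libraries, 4 residual degrees of freedom). The Benjamini-Hochberg adjustment ran over all tested genes, with a threshold of 0.05, and an SE is the size of the log2 fold change over the root of F. DESeq2 1.42.0 (Wald test) was the alternative. The fits were tested on simulated data. TMM factors were 0.653 to 0.751 in polysome and 1.37 to 1.45 in total libraries. A polysomal level is relative to the TMM-scaled library total and is neither a plain share of the counts nor an amount per cell. P-values measure the spread between 2 libraries a group, estimated jointly over the total and polysomal libraries, so they are not the spread of 1 fraction. An unadjusted edgeR p under 0.05 in total RNA was reached by 598 genes in this fit. It was reached by 2124 of 15500 tested in the 4 total libraries alone. In polysomal RNA these numbers were 2152, and 843 of 13824 tested in the 4 polysomal libraries alone.

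The members and the gene lists were chosen with earlier results of these data known. Named genes were the members, EIF4G2, in each list the 2 genes with the smallest edgeR p in a comparison, and for each member the 3 genes most alike in centred log2 CPM (prior count of 2, mean log2 CPM of at least 1). COL1A1, CDH1, CLDN3, CDH2, NFKB1, PRKD1, SMAD2, ESRP1, GRHL2 and OVOL1 were named after their values were seen. Lengths are the longest coding transcripts of GENCODE release 29, found for 87.2% of tested genes. Alternatives were other scalings and filters, single libraries left out, fits within a fraction or hairpin, a replicate block and a length offset (loess span of 0.5). Same-numbered libraries deviated together with correlations of -0.0921 to 0.0264, and the labels tie the numbers to nothing shared.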

Additional observations from a re-analysis of the deposited data

Results flagged for a closer look

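For 9 of the 109 tested genes of the lists (8.26%, beside 878 of 16228 tested genes, 5.41%), both knockdown libraries lay on one side of the scramble libraries in total RNA and on the other side in polysomal RNA. The difference between the fractions was tested as the interaction of hairpin and fraction, and none of the 9 passed (edgeR adjusted p of 0.776 to 0.877). Over all genes edgeR called 0, with 6.27% at an unadjusted p under 0.05. CLDN1, the tight junction gene, had 4.32 and 4.76 CPM in knockdown polysomes, against 7.15 and 5.53 CPM in scramble polysomes, opposite to total RNA, and the knockdown effect in polysomal minus total RNA was -1.34 ± 0.38 on the log2 scale. TAGLN, an actin-binding protein of myofibroblasts, had 180 and 147 CPM in knockdown total RNA, against 131 and 129 CPM in scramble total RNA, and 809 and 1480.2 CPM in knockdown polysomes, against 1875 and 1647 CPM in scramble polysomes, a difference of -0.95 ± 0.36 that was -0.59 without knockdown polysome 1 and -1.49 without knockdown polysome 2.

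Both chains of type I collagen were among the 9. COL1A1 had 4052 and 4171 CPM in knockdown total RNA, against 3866 and 3773 CPM in scramble total RNA, and 885 and 898 CPM in knockdown polysomes, against 1458 and 1218 CPM in scramble polysomes, a difference of -0.69 ± 0.26. COL1A2 had 285 and 298 CPM in knockdown total RNA, against 267 and 266 CPM in scramble total RNA, and 40.0 and 47.2 CPM in knockdown polysomes, against 131 and 51.1 CPM in scramble polysomes, a difference of -1.19 ± 0.45 that was -0.36 without scramble polysome 1. COL1A1 and the other 5 were named after their values were seen. The difference was -1.08 ± 0.43 for CLDN3, another claudin, and -0.50 ± 0.19 for CDH2, which encodes N-cadherin. It was -0.59 ± 0.27 for NFKB1, a subunit of NF-kappa B, and -0.35 without scramble polysome 1. PRKD1, a protein kinase, was at -0.45 ± 0.36, and at -0.22 without knockdown polysome 1 and -0.78 without knockdown polysome 2. SMAD2, a TGF-beta signal transducer, went the other way at 0.22 ± 0.20, and was at 0.06 without scramble polysome 2 and 0.33 without scramble polysome 1.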

How the results depend on the processing

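Depth limits PRRX1 and the ZEB genes in polysomes most, with 39 to 89 counts a library for PRRX1. With 2 libraries a group, leaving 1 out assumes that the lone library varies like the others. No member was called in total RNA under any alternative run. Genes called in total RNA numbered 0 with edgeR (598 at an unadjusted p under 0.05), 26 with DESeq2, 38 without a filter on low counts, 4 with the length offset, 5 with the length offset and replicate block, 10 in the 4 total libraries alone, and 0 to 0 with single libraries left out. In polysomal RNA 2 genes were called, against 1 with library totals, 228 with DESeq2, 502 without the filter, 0 with a filter of 1 CPM in 4 libraries (1873 at an unadjusted p under 0.05), 9 with the length offset and 5 with the offset and block. Without 1 library this ran from 0 to 183, the 183 without knockdown polysome 2. The change in the polysome-to-total difference was called for 4 genes with DESeq2, 64 without the filter and 0 to 2 with a library left out. In scramble cells the members called between polysomal and total RNA numbered 4 to 7 with a library left out. The replicate block alone gave 0, 3, 0, 9932 and 9774 genes in the 5 comparisons and changed no member's call in total RNA or in scramble cells.

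Directions that turned included these. In total RNA PRRX1 was at -0.0039 with library totals and ran from -0.20 to 0.22 with a library left out, SNAI1 from -0.12 to 0.059 and SNAI3-AS1 from -0.52 to 0.13. Between polysomal and total RNA, library totals turned TWIST1 (-0.51) in knockdown cells, and SNAI2 (-0.11), TWIST1 (-0.24), EIF4G2 (-0.85), SNAI3-AS1 (-0.45) and ZEB1-AS1 (-0.51) in scramble cells. The length offset turned TWIST1 (-0.11) and EIF4G2 (0.59) in knockdown cells and TWIST1 (-0.062) and PRRX1 (0.083) in scramble cells. With the replicate block added these were -0.10, 0.58, -0.064 and 0.083. PRRX1 also turned in knockdown cells with the length offset (0.43). Between knockdown and scramble polysomes, ZEB2 turned with library totals (-0.065) and SNAI1 with the length offset (0.043). The SNAI1 knockdown difference in polysomal minus total RNA was -0.048 with library totals. In knockdown cells SNAI3-AS1 was at 0.067 with upper-quartile factors and ran from -0.34 to 0.31 with a library left out, and EIF4G2 from -0.47 to 0.011. The causes were not tested.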

Other observations

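The proteins that SNAI and ZEB factors recruit, and those that mark or degrade them, were measured beside them. Of 17 corepressors, edgeR called 10 lower and 2 higher in polysomal than in total RNA of scramble cells, with a median log2 fold change of -0.50. Of all tested genes 63.4% were called there, 33.7% lower and 29.7% higher, with a median of -0.17. SMARCA4, a chromatin remodelling ATPase, averaged lower by -2.32 ± 0.16 and DNMT1, the maintenance DNA methyltransferase, by -2.21 ± 0.18 (edgeR adjusted p of 1.23e-06 and 2.74e-06). SMARCA4 ran from -3.33 to -1.17 and DNMT1 from -3.21 to -1.14 over the alternatives other than single libraries left out. The list counts were made without the length offset, and the part of transcript length in them was not tested. In the knockdown comparison edgeR called 0 of the 17 in total RNA (3 at an unadjusted p under 0.05, beside 3.68% of all genes) and 0 in polysomal RNA (2 at that level, beside 13.3%), and none was called by DESeq2. CTBP2, the corepressor bound by ZEB1 and ZEB2, had 58.2 and 57.6 CPM in knockdown total RNA, against 93.3 and 90.9 CPM in scramble total RNA, with -0.67 ± 0.19 (edgeR adjusted p of 1). Of 20 kinases, ubiquitin ligases and other regulators of SNAI, TWIST and ZEB protein stability, edgeR called 11 lower and 3 higher in polysomal RNA of scramble cells. This stands beside the same shares of all genes, with a median of -0.93, again without the length offset. In the knockdown comparisons edgeR called 0 of the 20 (0 in total and 2 in polysomal RNA with an unadjusted p under 0.05), and DESeq2 called 0.

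Among relatives outside the 7 genes, 5 of 10 were tested. PRRX2, the paralog of PRRX1, had 49.1 and 38.9 CPM in scramble polysomes, against 6.18 and 5.27 CPM in scramble total RNA, a log2 fold change of 2.94 ± 0.23 (edgeR adjusted p of 2.12e-06), while PRRX1 was at -0.68. TCF21, a bHLH factor of embryonic cardiac fibroblast precursors, was at -1.99 ± 0.53 (edgeR adjusted p of 0.00714), with 8 and 19 counts in scramble polysomes. Its value was -1.56 without scramble polysome 1 and -2.88 without scramble polysome 2, and the call was lost in 3 of 18 alternatives, without scramble total 2 (edgeR adjusted p of 0.0503) and with the length offset (-1.14, 0.0834), also with the replicate block added (0.0914). ZEB1-AS1 had 8.85 and 10.8 CPM in knockdown polysomes, against 5.80 and 4.34 CPM in scramble polysomes, a log2 fold change of 0.95 ± 0.29 (edgeR adjusted p of 0.230).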
